A study of Mus musculus with 18 samples.

Results

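The genes described here are those of the mouse major histocompatibility complex (MHC) and of the antigen presentation machinery. They are every symbol of the expression table that starts with H2-, which gives 44 genes, together with 10 named genes: Cd74, Ciita, B2m, Tap1, Tap2, Tapbp, Nlrc5, Psmb8, Psmb9 and Psmb10. These 54 genes are a small set of the 24062 symbols in the table. RNA was taken from the kidney cortex of C57Bl/6 mice perfused with PBS, and 18 libraries were made from total RNA, 3 in each of 6 groups. A library is named below by its genotype, its treatment and its replicate number. One genotype is Klf6fl/fl (fl/fl), with floxed alleles of the zinc finger transcription factor gene Klf6. The other is labelled Klf6PTKO (PTKO), a knockout in the proximal tubule. Mice of each genotype received DMSO (the vehicle), or aristolochic acid I (AAI, a nephrotoxin from plants) over 3 weeks, or that same course and then remodeling over another 3 weeks. The last group is called 6 weeks here, as in the sample titles. The labels do not give the driver that removes Klf6, the age or sex of the mice, or the week of the DMSO kidneys. They do not say either whether each library is 1 animal of its own, so p-values measure the spread between libraries, which may be technical.

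MHC class I molecules pair a heavy chain with the light chain B2m, display peptides from inside the cell, and are found on nearly all nucleated cells. The peptides are cut by the immunoproteasome (Psmb8, Psmb9 and Psmb10), carried into the endoplasmic reticulum by Tap1 and Tap2, and loaded with the help of Tapbp. Class II molecules pair an alpha and a beta chain, display peptides taken up from outside, and are made mainly by dendritic cells, macrophages and B cells, though injured tubule cells can make them too. Cd74 is the invariant chain that guards the class II groove, and the H2-DM proteins exchange its fragment for a peptide while H2-O restrains them. Nlrc5 and Ciita are the coactivators of class I and class II transcription, and interferon gamma raises both. In the kidney these molecules are known for their part in the recognition of injured tissue and of transplants.

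Promoters of these genes carry a shared set of short elements that the coactivators read through DNA-binding factors, and the stretches that hold them are shown as the known letters of this gene family. Their relation to the AAI response was not tested. Among genes that hold such elements, H2-Ke6, which has ATTGG, was lower in fl/fl given AAI at both times. The class II genes H2-Aa, H2-Eb1, H2-Eb2, H2-Oa and H2-Ob were higher in fl/fl given AAI at both times. RefSeq promoters (build GRCm38.p6, 250 bases before to 50 after each gene's start) were available for 37 of the 54 genes, of which 23 were tested for expression. H2-Ke2, H2-K2, H2-Ab1, H2-Ea-ps, H2-L, H2-Q1, H2-Q5, H2-Q8, H2-Q9, H2-T24, H2-T9, H2-Bl, H2-T10, Cd74, Ciita, Tap2 and Nlrc5 were not matched. They were searched on both strands for ATTGG, the core of the Y box, for AGCAAC, a part of the X1 box, for AGCAAC followed by ATTGG after 20 to 36 bases, and for GAAA repeated after a gap of any 2 bases, an interferon response core. ATTGG was in 20 of these 23 promoters (87%), against 42.1% of the 16781 promoters of the table. The pair of AGCAAC and ATTGG was in 4 of the 8 class II promoters (50%), in 0 of the 8 class I heavy chain promoters and in 0.352% of all promoters. With any base in front of GCAAC, a search added after seeing the sequences, H2-Aa joined these 4, and 0.977% of all promoters matched. The interferon core was in the promoters of B2m and H2-T23 alone among the 23, against 3.85% of all promoters. A match describes the letters of a window and is not a measured binding site. In the 5 class II stretches the capitals mark the X1 part and the Y box core. They lie at chr17:34287852-34287920 (minus strand, H2-Aa), chr17:34305760-34305827 (plus strand, H2-Eb1), chr17:34325527-34325594 (plus strand, H2-Eb2), chr17:34092287-34092355 (plus strand, H2-Oa) and chr17:34238802-34238867 (plus strand, H2-Ob).
H2-Aa: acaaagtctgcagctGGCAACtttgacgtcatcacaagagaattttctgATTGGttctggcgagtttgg
H2-Eb1: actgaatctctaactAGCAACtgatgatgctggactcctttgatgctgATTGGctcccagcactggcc
H2-Eb2: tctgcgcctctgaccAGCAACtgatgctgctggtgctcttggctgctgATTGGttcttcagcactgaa
H2-Oa: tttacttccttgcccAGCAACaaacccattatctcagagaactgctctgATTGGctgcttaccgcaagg
H2-Ob: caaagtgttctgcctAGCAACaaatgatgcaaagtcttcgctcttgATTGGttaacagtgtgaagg

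In the class I heavy chain promoters of H2-K1, H2-D1 and H2-Q4, ATTGG is followed after 15 to 25 bases by its reverse complement CCAAT, an arrangement searched after seeing the sequences. It was in these 3 of the 8 class I heavy chain promoters (37.5%), in H2-Eb1 among the 8 class II promoters, and in 0.763% of all promoters. The capitals mark both copies, 19, 18 and 19 bases apart. The stretches lie at chr17:34000320-34000393 (minus strand, H2-K1), chr17:35262988-35263060 (plus strand, H2-D1) and chr17:35379508-35379581 (plus strand, H2-Q4).
H2-K1: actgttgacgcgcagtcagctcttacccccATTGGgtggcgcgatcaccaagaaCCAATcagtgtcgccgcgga
H2-D1: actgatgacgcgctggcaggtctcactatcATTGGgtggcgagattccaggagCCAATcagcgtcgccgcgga
H2-Q4: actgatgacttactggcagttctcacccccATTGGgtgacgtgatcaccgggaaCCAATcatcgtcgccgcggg

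Levels are given in CPM (reads of a gene scaled to a common library total) as deposited, and differences as limma estimates on the log2(CPM + 1) scale, which understates the change of genes near 0. A gene was tested where it reached 1 CPM in at least 3 libraries, and a change was called at an adjusted p under 0.05 over the 14604 genes tested. Of the 54 genes, 34 were tested. H2-Oa, H2-DMb2, H2-Eb2, H2-Q2, H2-T10 and H2-M2 were under 1 CPM in every DMSO library and passed through AAI libraries. H2-Bl passed through PTKO libraries alone, so these 7 had to differ somewhere. H2-Ob, H2-Q5 and H2-Q10 reached 1 CPM in fewer than 3 DMSO libraries, so they also needed AAI libraries to pass, which favoured a rise. Libraries held 11722625 to 27213219 reads. Klf6 itself did not differ in level between the genotypes (averaged difference 0.10, 95% interval -0.11 to 0.32), and whole cortex counts cannot check the label. Adipocyte markers stood out in PTKO DMSO replicate 2 and PTKO 6 weeks replicate 2, and fl/fl 6 weeks replicate 2 had the fewest reads. Without these 3 libraries the counts of called genes under AAI were 32 and 31 in fl/fl and 31 and 25 in PTKO at 3 and 6 weeks, against 32, 32, 31 and 29 with them.

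AAI raised most of the set in both genotypes. In fl/fl at 3 weeks 31 of the 34 tested genes were higher and 1 was lower than under DMSO, when 58.0% of all genes tested were called higher and 18.2% lower (76.1% in all). Their median difference was 2.83, against 0.45 over all genes tested. At 6 weeks in fl/fl the counts were again 31 and 1, with a background of 59.8% higher and 13.9% lower (73.7% in all) and medians of 2.37 and 0.45. In PTKO 30 were higher and 1 lower at 3 weeks (background 57.2% and 13.9%, 71.1% in all, medians 2.51 and 0.42), and 29 were higher and 0 lower at 6 weeks (background 53.7% and 11.4%, 65.1% in all, medians 2.17 and 0.36). Among the 27 genes that reached 1 CPM in more than 1 kind of library, 25 rose in fl/fl at each time and 24 in PTKO at each time. These 27 still include H2-Ob, H2-Q5 and H2-Q10, which needed AAI libraries to pass the filter, so the count is not free of its favour. The 3-week and 6-week comparisons of a genotype share their DMSO libraries. The general shift of all genes depends on the scaling, since with median-of-ratios scaling the median of all genes in fl/fl at 3 weeks was 0.03 and the calls over all genes were 5353 higher and 4999 lower, in place of 8466 and 2651. There 27 genes of the set were still higher and 1 lower, with a median of 2.39. In whole tissue, more cells of a type and more RNA per cell cannot be told apart.

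The class II chains rose from a low level in every group given AAI. H2-Ab1, the beta chain of the I-A molecule, stood at 76.0, 85.0 and 129 CPM in the fl/fl DMSO libraries and at 1590, 1290 and 2740 CPM in fl/fl at 3 weeks. In PTKO it stood at 86.8, 95.2 and 102 CPM under DMSO and at 2100, 889 and 965 CPM at 3 weeks. Every AAI library of H2-Ab1 was far above every DMSO library, and the genotypes overlapped at 3 weeks. The rise was 4.23 ± 0.39 (SE) in fl/fl (adjusted p = 7.98e-08) and 3.67 ± 0.39 in PTKO (adjusted p = 6.59e-07). At 6 weeks the H2-Ab1 levels were 1620, 926 and 1480 CPM for fl/fl and 1050, 1180 and 431 CPM in PTKO, still well above DMSO. Its partner H2-Aa and the I-E beta chain H2-Eb1 followed closely, with rises of 4.29 and 4.32 in fl/fl and 3.72 and 3.75 in PTKO at 3 weeks. H2-Eb2, a second I-E type beta chain gene, was under 0.31 CPM in every DMSO library and reached 3.25, 3.52 and 6.67 CPM in fl/fl at 3 weeks. The remaining chain symbol, the I-E alpha gene listed as the pseudogene H2-Ea-ps, had reads in 2 libraries only, at most 0.0469 CPM. The C57BL/6 haplotype is known to make no I-E alpha chain.

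The class II chaperones moved with the chains. Cd74 stood at 220, 218 and 351 CPM in fl/fl under DMSO and at 4590, 4290 and 8500 CPM at 3 weeks. The PTKO libraries held 250, 228 and 264 CPM of Cd74 under DMSO and 6160, 2530 and 2820 CPM at 3 weeks. All AAI libraries were above all DMSO libraries, with fl/fl replicate 3 and PTKO replicate 1 the highest of their groups. Cd74 rose by 4.42 ± 0.40 in fl/fl and 3.83 ± 0.40 in PTKO (adjusted p = 6.2e-08 and 5.31e-07). H2-DMa, the alpha chain of the peptide exchanger, rose from 7.63, 7.77 and 10.6 CPM to 189, 143 and 282 CPM in fl/fl at 3 weeks, and H2-DMb1 and H2-DMb2, its beta chains, rose by 3.50 and 4.57. The sequences of H2-DMb1 and H2-DMb2 overlap: 31.4% of the 31-base words of H2-DMb1 transcripts also occur in those of H2-DMb2, so reads may be split between them. H2-Oa and H2-Ob, which restrain H2-DM and are best known from B cells, rose least of the class II genes, by 1.53 and 1.08 in fl/fl at 3 weeks. H2-Oa, H2-DMb2 and H2-Eb2 were tested only through AAI libraries, so their rise was favoured by the filter. The 7 other tested class II genes all rose in each of the 4 comparisons. Their medians were 4.29 and 3.78 in fl/fl and 3.71 and 3.14 in PTKO at 3 and 6 weeks. H2-Ob is 1 of these 7, but it was at most 1.37 CPM under DMSO and reached 1 CPM in fewer than 3 DMSO libraries. It too needed AAI libraries to be tested, so the filter favoured its rise. In PTKO at 6 weeks H2-Oa, at 1.66, 1.58 and 0.409 CPM, missed the threshold with a difference of 0.68 (adjusted p = 0.068).

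**Figure D1:**
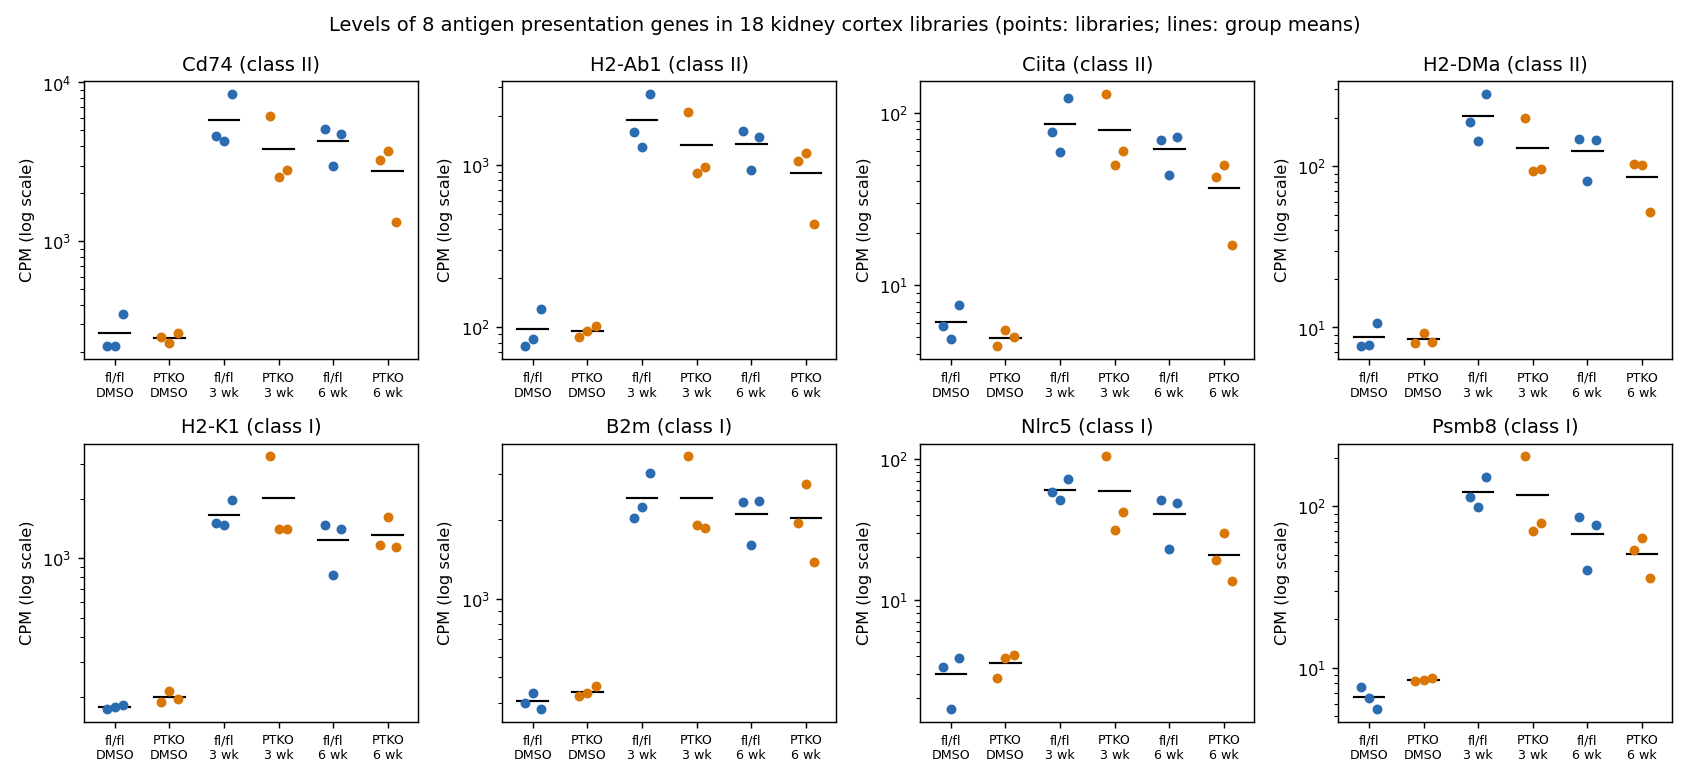
Levels in CPM on a log axis of 4 class II pathway genes (top) and 4 class I pathway genes (bottom) in each library of the 6 groups, blue for fl/fl and orange for PTKO; points are libraries and lines are group means. Every AAI library lies above every DMSO library for each of the 8 genes, and PTKO replicate 1 stands above the other libraries of its group at 3 weeks, with H2-K1 at 3270 CPM.

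The ratio of H2-Ab1 to the invariant chain moved little while both rose. There were 0.345, 0.390 and 0.368 H2-Ab1 reads per Cd74 read in fl/fl under DMSO, 0.347, 0.302 and 0.323 at 3 weeks and 0.316, 0.311 and 0.309 at 6 weeks. In PTKO the ratio was 0.347, 0.417 and 0.385 under DMSO, 0.341, 0.351 and 0.343 at 3 weeks and 0.321, 0.320 and 0.327 at 6 weeks. The 18 values ran from 0.302 to 0.417, and every 6-week library, at 0.309 to 0.327, lay below every DMSO library. At 6 weeks the PTKO libraries lay slightly above the fl/fl libraries. These ratios compare 2 genes within a library, so library scaling cannot move them. They were chosen after values had been seen and carry no test.

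The coactivators rose in both genotypes. Ciita, the switch for class II, went from 5.81, 4.88 and 7.66 CPM under DMSO to 76.8, 59.2 and 122 CPM at 3 weeks in fl/fl. In PTKO it went from 4.40, 5.48 and 4.96 CPM to 129, 49.8 and 59.6 CPM. The groups did not overlap, and the differences were 3.57 ± 0.38 and 3.64 ± 0.38 (adjusted p = 4.19e-07 and 5.95e-07). Nlrc5, the switch for class I, rose by 3.99 ± 0.39 in fl/fl and 3.53 ± 0.39 in PTKO at 3 weeks (adjusted p = 1.69e-07 and 1.09e-06), from 1.68 to 4.04 CPM over the DMSO libraries of both genotypes. At 6 weeks Nlrc5 stood at 51.3, 23.1 and 48.3 CPM in fl/fl and at 19.2, 30.0 and 13.6 CPM in PTKO.

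The classical class I heavy chains rose less on the log2(CPM + 1) scale than H2-Ab1, H2-Aa, H2-Eb1 and Cd74, and more than H2-Eb2, H2-Oa and H2-Ob. The last of these genes were near 0 under DMSO, where this scale understates a rise. In fl/fl, mean H2-Eb2 went from 0.153 to 4.48 CPM at 3 weeks, and mean H2-K1 from 178 to 1650 CPM. H2-K1 stood at 173, 178 and 182 CPM in fl/fl under DMSO and at 187, 214 and 195 CPM in PTKO. At 3 weeks the levels were 1510, 1470 and 1970 CPM for fl/fl and 3270, 1410 and 1400 CPM in PTKO. PTKO replicate 1 was the highest of all libraries, and the other PTKO libraries lay just below the fl/fl range. H2-K1 rose by 3.20 ± 0.28 in fl/fl and 3.23 ± 0.28 in PTKO (adjusted p = 3.99e-08 and 7.3e-08), and at 6 weeks by 2.74 and 2.70. H2-D1, the other heavy chain tested, rose by 2.73 and 2.55 at 3 weeks and by 2.53 and 2.27 at 6 weeks. H2-L, the third classical symbol, is listed at 0 in every library. H2-K1 and H2-D1 share 11.1% of H2-K1 transcript words, a possible source of shared reads.

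H2-K1 and H2-D1 did not rise in step. Under DMSO there were 0.492, 0.467 and 0.471 H2-D1 reads per H2-K1 read in fl/fl and 0.486, 0.470 and 0.475 in PTKO. At 3 weeks the ratio was 0.311, 0.367 and 0.365 in fl/fl and 0.286, 0.310 and 0.305 in PTKO. At 6 weeks it was 0.404, 0.429 and 0.408 in fl/fl and 0.383, 0.350 and 0.338 in PTKO. Every AAI library was below every DMSO library, and the PTKO libraries lay below the fl/fl libraries at both AAI times.

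The light chain, the loading complex and the immunoproteasome rose as 7 of 7 genes in each of the 4 AAI comparisons, with medians of 3.10 and 2.35 in fl/fl and 2.63 and 2.14 in PTKO at 3 and 6 weeks. B2m stood at 400, 435 and 378 CPM in fl/fl under DMSO and at 2040, 2250 and 3010 CPM at 3 weeks, a rise of 2.57 ± 0.26 (adjusted p = 2.07e-07). In PTKO it went from 426, 434 and 463 CPM to 3500, 1910 and 1870 CPM, a rise of 2.39 ± 0.26 (adjusted p = 7.87e-07). Psmb8, an inducible catalytic subunit of the proteasome, rose most of the 7 in fl/fl at 3 weeks, from 5.55 to 7.63 CPM under DMSO to 99.5 to 153 CPM, a difference of 4.01 (adjusted p = 3.09e-08). The other inducible subunits Psmb9 and Psmb10 rose by 3.38 and 3.10. The peptide transporter subunits Tap1 and Tap2 rose by 3.64 and 2.23 and the loading bridge Tapbp by 2.16.

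**Figure D2:**
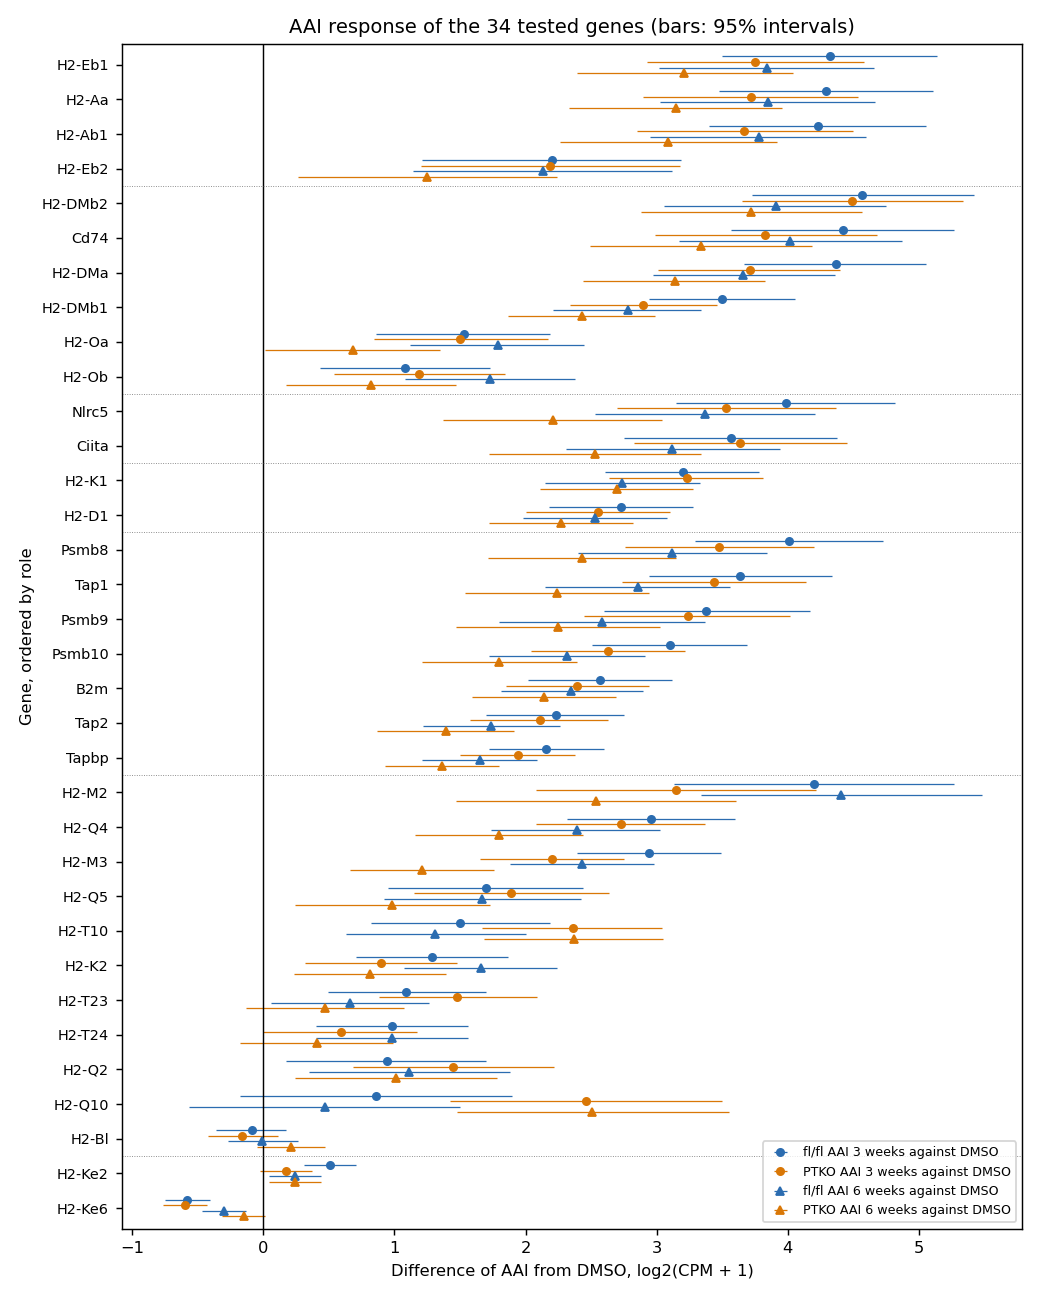
Difference of AAI from DMSO on the log2(CPM + 1) scale for each of the 34 tested genes, by role from class II chains (top) to genes with other functions (bottom), with 95% intervals; circles are 3 weeks, triangles 6 weeks, blue fl/fl and orange PTKO. Class II chains and chaperones reach 4.57, H2-Bl stays near 0 in all 4 comparisons, and H2-Ke6 lies below 0.

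Of the 29 non-classical class I genes, 11 were tested, and their responses were uneven. H2-M2, H2-Q2 and H2-T10 were tested only through AAI libraries and H2-Bl only through PTKO libraries. Of the 7 others, 6 rose in fl/fl at each time, and in PTKO 6 rose at 3 weeks and 5 at 6 weeks. These 7 include H2-Q5 and H2-Q10, which reached 1 CPM in fewer than 3 DMSO libraries and needed AAI libraries to be tested. H2-M2, whose test the filter favoured, went from 0 to 0.264 CPM in the fl/fl DMSO libraries to 16.3, 15.4 and 32.1 CPM at 3 weeks and 38.0, 21.6 and 15.4 CPM at 6 weeks. Its levels in PTKO were 29.0, 5.77 and 4.94 CPM at 3 weeks and 6.13, 10.1 and 3.27 CPM at 6 weeks, below each fl/fl library at 6 weeks. H2-M3, which presents bacterial formylated peptides, rose by 2.94 ± 0.26 in fl/fl and 2.20 ± 0.26 in PTKO at 3 weeks (adjusted p = 4.73e-08 and 1.89e-06). H2-Q4 rose by 2.96 and 2.73 at that time. H2-T23, which encodes Qa-1, a ligand of the NK cell receptor NKG2A, rose by 1.09 and 1.48 there, and its difference in PTKO at 6 weeks was 0.47 (adjusted p = 0.156). H2-K2, H2-Q2, H2-Q5 and H2-T24 rose by 0.94 to 1.70 in fl/fl at 3 weeks, and for H2-K2 quantile normalization turned the PTKO differences of 0.90 and 0.81 into -0.09 and -0.02. H2-Q5 transcripts share 43.2% of their words with H2-Q7, which is listed at 0.

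H2-Q10, a secreted class I molecule known from the liver, behaved apart. Its fl/fl levels were 4.48, 1.12 and 0.317 CPM under DMSO, 5.79, 3.24 and 2.18 CPM at 3 weeks and 2.24, 0.938 and 5.41 CPM at 6 weeks, overlapping throughout. In PTKO the levels were 0.450, 0.866 and 0.916 CPM under DMSO, 6.53, 6.65 and 13.9 CPM at 3 weeks and 6.44, 8.15 and 13.2 CPM at 6 weeks. All PTKO libraries given AAI were above all PTKO DMSO libraries and above the fl/fl libraries of the same time. No PTKO DMSO library reached 1 CPM, and H2-Q10 needed AAI libraries to pass the filter, which favoured a rise. The rise in PTKO was 2.46 ± 0.49 at 3 weeks and 2.51 ± 0.49 at 6 weeks (adjusted p = 0.000327 and 0.000369), against 0.86 and 0.47 in fl/fl (adjusted p = 0.12 and 0.397). The test of the difference between these rises gave 1.60 and 2.05 at the earlier and the later time (adjusted p = 0.232 and 0.223). At 6 weeks PTKO was higher than fl/fl by 1.53 (adjusted p = 0.0464), a call that 7 of the 18 fits without 1 library kept.

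H2-Ke6 and H2-Ke2 lie in the complex but have other functions: H2-Ke6 is Hsd17b8, a steroid dehydrogenase, and H2-Ke2 is a RefSeq synonym of Pfdn6, a subunit of the prefoldin chaperone. Of the H2-Ke6 transcript words 76.1% occur in Gm20427 as well, so the counting could split its reads. H2-Ke6 fell under AAI, from 66.1, 65.7 and 66.4 CPM to 42.9, 40.7 and 47.9 CPM in fl/fl at 3 weeks, by 0.58 on the log2 scale (adjusted p = 6.05e-06). In PTKO it fell by 0.60 at 3 weeks (adjusted p = 7.42e-06). At 6 weeks the H2-Ke6 difference was -0.30 in fl/fl (adjusted p = 0.00298) and -0.15 in PTKO (adjusted p = 0.0988). H2-Ke2 differences were small, at most 0.51, and their sign under AAI turned with scaling: 0.51, 0.24, 0.17 and 0.24 on CPM became -0.04, -0.34, -0.37 and -0.20 with quantile normalization, for fl/fl at 3 and 6 weeks and PTKO at 3 and 6 weeks.

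The other 20 genes did not pass the filter. Of these, 10 are listed at 0 in all 18 libraries: H2-L, H2-Q6, H2-Q7, H2-Q8, H2-Q9, H2-T9, H2-M9, H2-M10.3, H2-M10.4 and H2-M10.6. Of these, 4 (H2-L, H2-Q8, H2-Q9 and H2-T9) are not symbols of GENCODE M21, and the annotation behind the table is not given in the sources used here, so their 0 may not measure expression. For the other genes at 0, counting error alone allows up to 3 reads, or 0.1102 to 0.2559 CPM depending on the library. The rest were seen in 1 to 17 libraries, and H2-T22 had the highest single value, 1.15 CPM. How reads are shared among near-identical copies in the deposited values is not given in the sources used here.

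From 3 to 6 weeks, few of these genes changed by the test. In fl/fl 1 of 34 was higher at 6 weeks, H2-Ke6 by 0.28 (adjusted p = 0.0312), and 0 were lower, against 7.16% of all genes called higher and 6.07% lower (13.2% in all). The median difference was -0.44, against 0.00 over all genes. Without PTKO 3 weeks replicate 1 the fl/fl count was 6, and it was 0 without fl/fl 3 weeks replicate 1 or 2, or without fl/fl 6 weeks replicate 2 or 3, and 2 without PTKO 6 weeks replicate 3. In PTKO 5 of 34 were called, against 2.92% of all genes called higher and 8.26% lower (11.2% in all). H2-M3, H2-T23, Nlrc5 and Tap1 were lower (differences of -0.99, -1.01, -1.33 and -1.2, adjusted p = 0.0251, 0.0333, 0.0415 and 0.0315), and H2-Ke6 was higher by 0.44 (adjusted p = 0.00443). The PTKO count was 1 without PTKO 3 weeks replicate 1, or without PTKO 6 weeks replicate 1 or 3. It was 11 without PTKO 3 weeks replicate 2 and 10 without fl/fl 6 weeks replicate 2.

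Between genotypes, 1 of the 34 genes differed under DMSO, H2-Bl, against 0.288% of all genes tested (0.192% higher and 0.0959% lower in PTKO). H2-Bl was tested through PTKO libraries alone, so the filter favoured its call here and in the comparisons that follow. At 3 weeks 3 differed, of which H2-Bl and H2-T10 were higher and H2-Ke2 lower in PTKO (background 6.22% higher and 8% lower, 14.2% in all). At 6 weeks 7 differed, 3 higher and 4 lower (background 3.27% and 11.8%, 15.1% in all). The comparison averaged over the 3 treatments called 9, of which 3 were higher and 6 lower in PTKO (background 7.47% higher and 17.1% lower, 24.6% in all). H2-Bl, H2-T10 and H2-Ke6 were higher, and H2-Eb1, H2-Oa, H2-Ob, H2-M2, H2-M3 and H2-T23 were lower. The balance depended on the scaling, with 4 higher and 2 lower after median-of-ratios scaling, 5 and 2 after quantile normalization and 4 and 1 by edgeR. Leaving out 1 library moved this count to between 2 and 14, with 11 of the 18 libraries moving it by over 1.5 times. The lowest count came without PTKO 3 weeks replicate 2 or fl/fl 6 weeks replicate 1, and the highest without PTKO 3 weeks replicate 1. PTKO 3 weeks replicate 1 was the highest of its group in 33 of the 34 tested genes. Without it the 3-week comparison called 8 genes in place of 3, of which 7 were lower in PTKO. The 3-week count was 1 without PTKO replicate 3 or without fl/fl replicate 2 or 3. At 6 weeks the count was 10 without PTKO 3 weeks replicate 1, 3 without PTKO 6 weeks replicate 3 and 1 without fl/fl 6 weeks replicate 1.

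H2-M2, H2-M3, H2-Oa and H2-Ob were the genes lower in PTKO at 6 weeks. H2-M3 stood at 12.8, 9.98 and 12.4 CPM for fl/fl and 5.82, 7.10 and 3.27 CPM in PTKO. The groups did not overlap, and the difference was -1.03 ± 0.26 (adjusted p = 0.0178). H2-M2 differed by -1.81 (adjusted p = 0.0277), H2-Oa by -1.33 (adjusted p = 0.0144) and H2-Ob by -1.16 (adjusted p = 0.0223). Of the 18 fits without 1 library, 15 kept the call for H2-M2 and H2-M3, 17 for H2-Oa and 16 for H2-Ob. The averaged calls were kept in 8, 9, 14 and 6 of 18, and that of H2-Eb1 in 6. B cell marker reads, a list of 8 genes of which Ms4a1 is at 0 in 2 libraries, Pax5 in 5 and Fcer2a in 1, summed to 15.5 to 17.2 CPM for fl/fl and 6.96 to 7.84 CPM in PTKO at 6 weeks. At 3 weeks these sums overlapped, at 7.58 to 20.3 CPM for fl/fl and 7.86 to 8.59 CPM in PTKO. Under DMSO they also overlapped, at 3.1 to 5.07 CPM and 4.67 to 5.6 CPM. The part of the B cell markers in these results was not tested.

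Cd74 relative to B2m and H2-Ab1 relative to H2-K1 were lower in PTKO given AAI. No other pair of a class II and a class I gene was compared. Under DMSO there were 0.552, 0.5 and 0.928 Cd74 reads per B2m read in fl/fl and 0.587, 0.525 and 0.571 in PTKO. At 3 weeks the ratio was 2.25, 1.90 and 2.82 in fl/fl and 1.76, 1.33 and 1.5 in PTKO, and at 6 weeks 2.19, 1.85 and 2.03 against 1.67, 1.34 and 0.951. The genotypes overlapped under DMSO and did not under AAI. H2-Ab1 reads per H2-K1 read showed the same order, with 1.05, 0.881 and 1.39 in fl/fl and 0.641, 0.632 and 0.688 in PTKO at 3 weeks. PTKO 3 weeks replicate 1, which had the highest level of H2-K1 of all libraries, was within the range of its group in the H2-Ab1 ratio. These ratios carry no test, as they were chosen after values had been seen. The levels of Cd74 and H2-Ab1 themselves did not pass the test between genotypes at 6 weeks, where the difference was -0.73 ± 0.40 for Cd74 (95% interval -1.58 to 0.11, adjusted p = 0.219) and -0.68 for H2-Ab1 (-1.51 to 0.14, adjusted p = 0.241).

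Markers of antigen presenting cells moved with treatment and genotype. The 9 macrophage markers in the table summed to 144 to 214 CPM over the DMSO libraries, and none was at 0 in any library. At 3 weeks they summed to 5550, 8490 and 9370 CPM for fl/fl and 3850, 1900 and 2250 CPM in PTKO, and at 6 weeks to 5710, 3340 and 5170 CPM against 2270, 2700 and 1200 CPM. Under AAI the genotypes did not overlap, and the estimates of all 9 markers were lower in PTKO at both times. By the test, 8 of 9 were called lower in PTKO at 3 weeks and 6 of 9 at 6 weeks. Of all genes tested, 8% and 11.8% were called lower in PTKO at these times. The 9 dendritic cell markers, none at 0 in any library, summed to 271 to 450 CPM for fl/fl and 88.5 to 220 CPM in PTKO at 3 weeks. Most of this sum was Itgax, at 245, 232 and 356 CPM for fl/fl and 157, 51.9 and 94.5 CPM in PTKO. Mean Cd209a and Siglech were higher in PTKO at that time (8.85 against 6.21 CPM and 1.76 against 1.48 CPM), and the other means were lower. The 10 T and NK cell markers, of which Ncr1 was at 0 in 3 libraries, summed to 92.2 to 181 CPM for fl/fl and 56.9 to 185 CPM in PTKO at 3 weeks, with the 185 CPM in PTKO replicate 1. Proximal tubule markers, a list of 10, summed to 4610 to 7900 CPM for fl/fl and 8530 to 13300 CPM in PTKO at 3 weeks. The part of these cell markers in the levels of the class I and class II genes was not tested.

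Class II reads were also set against the summed markers of antigen presenting cells. There were 2.97 to 3.45 class II reads per macrophage marker read in fl/fl under DMSO and 3.07 to 3.86 in PTKO. At 3 weeks the ratio was 1.71, 0.986 and 1.82 in fl/fl and 3.16, 2.68 and 2.49 in PTKO, and at 6 weeks 1.74, 1.77 and 1.80 against 2.80, 2.59 and 2.16. The PTKO libraries were above the fl/fl libraries at both AAI times. Per dendritic cell marker read there were 30.6, 32.1 and 31.9 class II reads in fl/fl and 40.3, 44.9 and 38.8 in PTKO under DMSO. At 3 weeks this ratio was 31.1, 30.9 and 37.9 in fl/fl and 55.2, 57.4 and 41.1 in PTKO, and at 6 weeks 28.6, 37.0 and 38.8 against 70.4, 64.7 and 78.5. It was higher in the PTKO libraries without overlap under DMSO as well. Under AAI most dendritic cell marker reads were Itgax reads, so there the ratio rests mainly on that gene. H2-K1 reads per macrophage marker read were 0.173 to 0.273 in fl/fl and 0.624 to 0.850 in PTKO at 3 weeks.

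**Figure D3:**
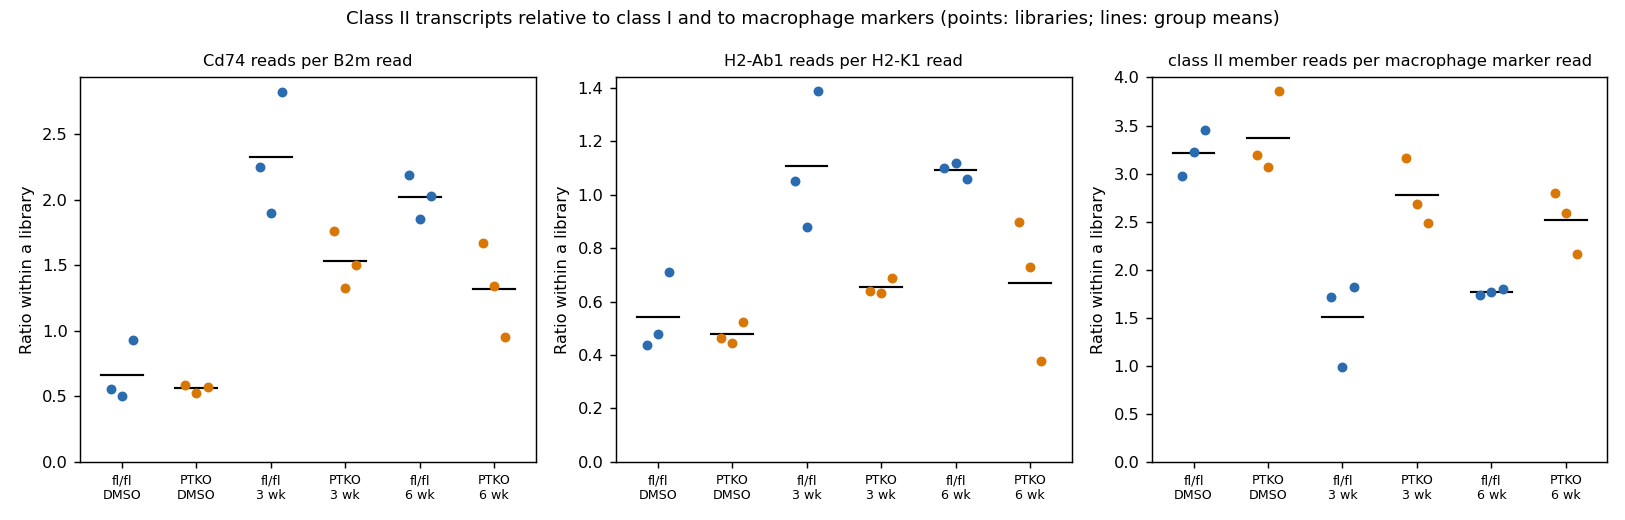
Read ratios within each library: Cd74 to B2m, H2-Ab1 to H2-K1, and the summed class II genes to the summed macrophage markers, by group, blue for fl/fl and orange for PTKO; points are libraries and lines are group means. Under AAI the PTKO libraries lie below fl/fl in the first panels (Cd74 to B2m at 3 weeks 1.33 to 1.76 against 1.90 to 2.82) and above fl/fl in the last. Lyz2 was the largest single marker of the macrophage sum in each AAI library.

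H2-Bl, among the T genes of the complex, was higher in PTKO under each treatment. It was tested only because PTKO libraries reached 1 CPM, so the filter favoured a difference, and its tests are to be read with that. H2-Bl (ENSMUSG00000073406.10, annotated in GENCODE M21 as a polymorphic pseudogene, mm10 chr17:36080115-36084223, minus strand) had 1 to 5 reads in each fl/fl library and 24 to 37 reads in each PTKO library. Its levels were 0.242, 0.254 and 0.106 CPM for fl/fl and 1.40, 1.15 and 1.29 CPM in PTKO under DMSO. At 3 weeks they were 0.112, 0.0469 and 0.218 CPM against 1.27, 0.919 and 0.972 CPM, and at 6 weeks 0.0997, 0.256 and 0.232 CPM against 1.56, 1.47 and 1.89 CPM. All 9 PTKO libraries were above all 9 fl/fl libraries. The difference was 0.93 ± 0.12 under DMSO, 0.87 ± 0.12 at 3 weeks and 1.14 ± 0.12 at 6 weeks (adjusted p = 0.00173, 0.00158 and 8.11e-05 in that order). Averaged over treatments it was 0.98 ± 0.07 (adjusted p = 5.18e-07). The call held in each of the 18 fits without 1 library in every comparison, and with no filter on low values. With so few reads the log2(CPM + 1) scale compresses the difference: group means over all treatments were 0.174 ± 0.0816 CPM (SD, n = 9) in fl/fl and 1.33 ± 0.301 CPM (SD, n = 9) in PTKO. H2-Bl was the only gene of the 34 whose genotypes did not overlap on the same side in all 3 treatments, 2.94% against 1.97% of all genes tested, which is near that background. Of its transcript words 78.7% are unique and 9.45% are shared with Gm10499.

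H2-T10 (ENSMUSG00000079491.9, polymorphic pseudogene, chr17:36115876-36121465, minus strand) lies next to it and was higher in PTKO under AAI. Its levels were 0.303, 0.254 and 0.740 CPM for fl/fl and 0.549, 0.625 and 0.808 CPM in PTKO under DMSO, where the groups overlapped. At 3 weeks they were 2.54, 2.81 and 3.8 CPM against 15.9, 4.48 and 5.59 CPM, and at 6 weeks 3.19, 1.54 and 3.09 CPM against 6.65, 9.78 and 6.60 CPM. The groups did not overlap at either AAI time. The difference was 0.23 under DMSO (adjusted p = 1), 1.08 after 3 weeks of AAI (adjusted p = 0.0377), 1.28 in the 6-week groups (adjusted p = 0.0182) and 0.86 ± 0.19 averaged (adjusted p = 0.00508). The averaged call held in each fit without 1 library, at 0.70 to 0.97, and the 3-week call in 13 of 18. H2-T10 reads per 1000 H2-K1 reads were 1.68, 1.92 and 1.93 in fl/fl and 4.86, 3.19 and 3.98 in PTKO at 3 weeks, and 2.17, 1.86 and 2.21 against 5.69, 6.04 and 5.79 at 6 weeks. H2-T10 shares 47.6% of its transcript words with H2-T22, so reads may be split between them. H2-T22 was under 1.15 CPM and averaged 0.640 CPM for fl/fl and 0.563 CPM in PTKO.

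H2-T23, on the other side of H2-Bl, was lower in PTKO. Under DMSO its levels were 56.6, 54.7 and 57.0 CPM for fl/fl and 42.2, 49.2 and 26.7 CPM in PTKO, and at 6 weeks 101, 71.8 and 97.7 CPM against 54.5, 68.9 and 40.0 CPM. The groups did not overlap at these times, and at 3 weeks PTKO replicate 1, at 183 CPM, was above all fl/fl libraries while the others were below. The averaged difference was -0.48 ± 0.16 (adjusted p = 0.0443), and 5 of the 18 fits without 1 library called it. Relative to H2-K1, H2-T23 was lower in every PTKO library than in every fl/fl library of the same treatment: per 1000 H2-K1 reads it had 308 to 327 reads against 137 to 230 under DMSO, 68.9 to 76.8 against 55.9 to 60.4 at 3 weeks, and 68.7 to 87.0 against 35.1 to 46.7 at 6 weeks.

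**Figure D4:**
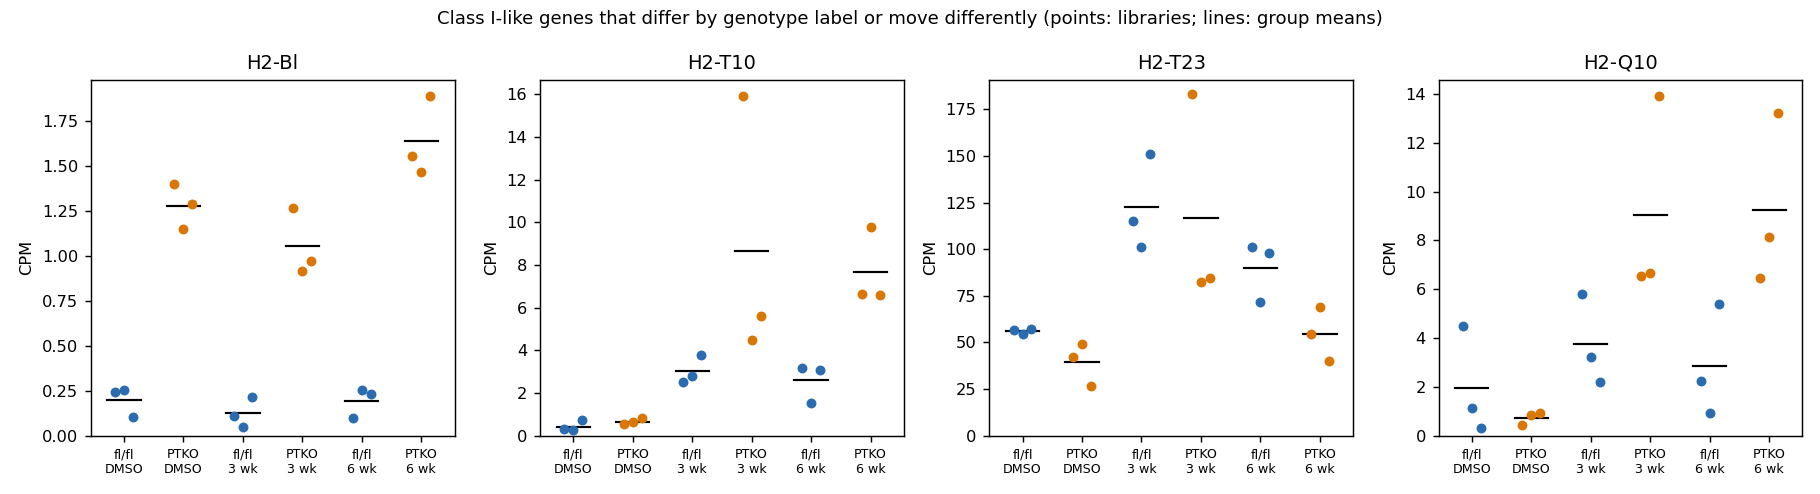
Levels in CPM (linear axes from 0) of H2-Bl, H2-T10, H2-T23 and H2-Q10 in each library of the 6 groups, blue for fl/fl and orange for PTKO; points are libraries and lines are group means. H2-Bl separates the genotypes under every treatment, at no more than 0.256 CPM in fl/fl and at least 0.919 CPM in PTKO.

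Near these genes, other transcripts of the region differed as well. The stretch from A930015D03Rik to H2-T3, chr17:35994453-36190287 (196 kb), was marked out after the values had been seen. It holds 13 genes of the table, of which 6 were tested. Gm8909 (chr17:36164443-36168537), a protein-coding gene model, was higher in PTKO by 0.60 ± 0.11 averaged (adjusted p = 0.00198), with means of 0.248 CPM over the fl/fl libraries and 0.94 CPM over the PTKO libraries. Its difference was 0.37 under DMSO (adjusted p = 0.826), 0.62 at 3 weeks and 0.82 at 6 weeks (adjusted p = 0.0425 and 0.0135). Like H2-Bl it was under 1 CPM in every fl/fl library and passed the filter through PTKO libraries alone. It was the 1 of the 90 tested genes of the complex outside the set (1.11%) that did not overlap between genotypes on the same side in all 3 treatments, below the 1.97% of all genes tested. A930015D03Rik, an antisense transcript, was higher by 0.58 ± 0.12 (adjusted p = 0.00346), at 1.73 and 3.11 CPM. It overlaps H2-T24 and H2-T23 on the other strand. The library kit keeps strand, but whether counting used it is not given in the sources used here, so reads of these overlapping genes may not be separated. H2-T24 differed by 0.41 (adjusted p = 0.0728). Klf6 lies on another chromosome (13), and the labels do not give the site of any transgene.

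Over the whole complex, from the first to the last placed H2 gene (chr17:33974659-37483552), the table holds 147 other genes, of which 90 were tested. Averaged over treatments 7 were higher and 18 lower in PTKO, against 7.47% and 17.1% of all genes tested. Those highest by the naming rule were Hspa1b, a heat shock protein gene (0.67), Slc44a4 (0.26), Ppp1r11 (0.22) and 2310061I04Rik (0.13). Those lowest were Tnf, the inflammatory cytokine gene (-0.75), Aif1, a macrophage marker (-0.71), Gpsm3 (-0.60), Ppp1r18 (-0.54) and Nrm (-0.52). In the set itself, class II genes at the near end lay mostly below 0 and T genes on both sides of it.

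**Figure D5:**
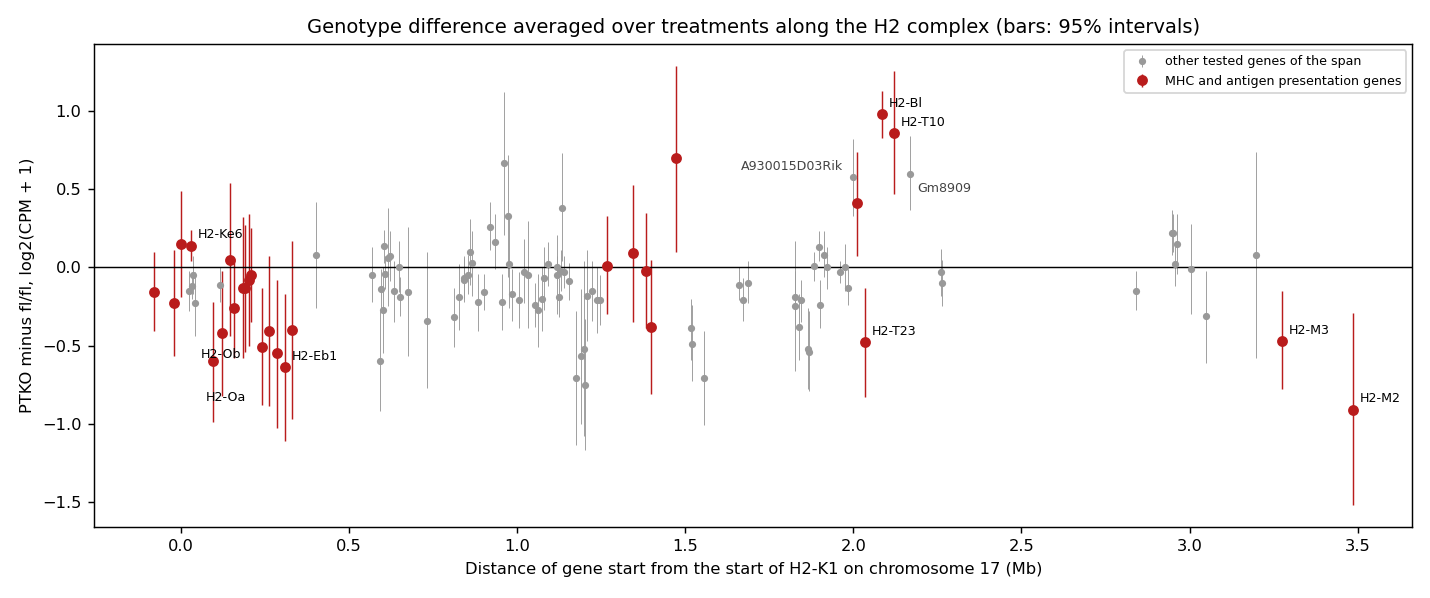
PTKO minus fl/fl averaged over treatments, log2(CPM + 1) with 95% intervals, against the distance of each gene's start from the start of H2-K1 in Mb, red for genes of the set and grey for the 90 other tested genes. H2-Bl (0.98) and H2-T10 (0.86) lie highest of the called genes, beside A930015D03Rik (0.58), Gm8909 (0.60) and the lower H2-T23 (-0.48).

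A difference between genotypes in the size of the AAI response was called for 0 of the 34 genes at 3 weeks and 0 at 6 weeks by limma, when 0.281% of all genes (0.164% higher, 0.116% lower) and 0.0685% (0.0274% higher, 0.0411% lower) were called. At an unadjusted p under 0.05 there were 2 and 6, and edgeR and DESeq2 also called 0 at either time. The intervals are wide: at 6 weeks the interaction was -0.68 for Cd74, -0.04 for H2-K1 and -1.88 for H2-M2. A miss of the threshold does not show that the responses were alike.

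Other genes of the pathway, taken from 5 lists, rose with the set. Of the 33 tested, 30 rose in fl/fl at 3 weeks and 28 at 6 weeks, 26 and 28 in PTKO, and 0 fell in any of these comparisons. Over all genes tested, 58.0% and 59.8% were called higher in fl/fl and 57.2% and 53.7% in PTKO at these times. Of the interferon gamma pathway 9 of 9 tested genes rose in all 4 comparisons, Ifngr1, a receptor chain, by 2.41 in fl/fl and 1.86 in PTKO at 3 weeks and Irf1, a target transcription factor, by 2.97 and 2.83. Ifng itself was at most 2.53 CPM, in PTKO 3 weeks replicate 1, and was too low to be tested. The lysosomal protease Ctss, which trims the invariant chain, rose by 5.88 in fl/fl and 4.23 in PTKO at 3 weeks. It was at 856, 1020 and 1300 CPM for fl/fl and 621, 225 and 268 CPM in PTKO, which did not overlap, a difference of -1.63. All 4 costimulation genes rose, Cd86 by 3.52 and 2.99. Of the DNA-binding factors that carry Ciita and Nlrc5, 5 of 7 rose in fl/fl at 3 weeks, near the 58.0% of all genes. The median of the 7 was 0.69, near the 0.45 of all genes. Averaged over treatments 12 of the 33 were lower in PTKO and 0 higher, against the 17.1% and 7.47% given above, and 5 of these 12 were interferon gamma pathway genes and 4 costimulation genes.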

How the data were processed

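The deposited table holds CPM values that the authors made for 24062 gene symbols in 18 libraries. The submitters' processing notes name bcl2fastq 2.19, kallisto and mm10, with roles not given in the sources used here. Each value times the library's inferred total was within 0.01 of a whole read for 100% of 433116 values, so reads were recovered. With them, edgeR 4.0.16 called 29, 30, 33 and 28 and DESeq2 1.42.0 called 30, 30, 32 and 29 of the 34 tested genes under AAI (fl/fl at 3 and 6 weeks, PTKO at 3 and 6 weeks), against 32, 32, 31 and 29 by limma.

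Values were put on the log2(CPM + 1) scale, so the pseudocount was 1. Under R 4.3.3, limma 3.58.1 fitted a mean for each of the 6 groups, leaving 12 residual degrees of freedom, with a trend in the variance. The two-sided p-values were adjusted (Benjamini-Hochberg) across the 14604 genes that reached 1 CPM in 3 libraries. In all 12 comparisons were made. The fit was tested on simulated data. Positions and gene types come from GENCODE M21. The share of 31-base transcript words that a gene shares with others measures how far its reads could be split.

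Groups come from the sample labels. The genes, lists and comparisons were chosen with earlier results of these data known. Named in the text are genes of the set with a mean of at least 1 CPM in a group, up to 3 of each pathway list, and up to 5 higher and 5 lower neighbours in the complex with a mean of at least 5 CPM; A930015D03Rik, Gm8909 and Ifng were named after their values were seen. Alternatives were another pseudocount, other filters, scalings and tools, fits of only the groups compared, a block for the replicate number, and leaving out each library. Leaving out 3 libraries was added after seeing the data.
Libraries held 11722625 to 27213219 reads, and limits for a value of 0 (3 reads) cover counting error only.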

Additional observations from a re-analysis of the deposited data

How the results depend on the processing

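The rises under AAI held: counts of called genes stayed within 1.5 times under every setting run, leaving out each library included (31 to 32 and 29 to 32 in fl/fl, 30 to 32 and 25 to 30 in PTKO, at 3 and 6 weeks). With quantile normalization 23, 25, 27 and 22 rose (fl/fl at 3 and 6 weeks, PTKO at 3 and 6 weeks) and the split of all genes in fl/fl at 3 weeks went from 8466 higher and 2651 lower to 4612 and 5682; with median-of-ratios scaling it was 5353 and 4999. H2-Ke2 turned under AAI for fl/fl at 6 weeks and PTKO at 3 and 6 weeks with median-of-ratios scaling (-0.22, -0.27 and -0.14), edgeR (-0.23, -0.27 and -0.11) and DESeq2 (-0.23, -0.28 and -0.14), and with quantile normalization also in fl/fl at 3 weeks (-0.04, then -0.34, -0.37 and -0.20). Quantile normalization also turned H2-K2 in PTKO (-0.09 and -0.02) and H2-Bl in PTKO at 6 weeks (-0.56). The cause was not tested.

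Smaller counts moved. The averaged genotype count of 9 became 5 with a pseudocount of 0.1, 4 with no filter and 5 with edgeR. The PTKO count of 5 between 3 and 6 weeks became 3 with no filter, 0 with the compared groups only, 13 with DESeq2 and 9 without 3 libraries that stand apart. The fl/fl count of 1 between these times became 0 with median-of-ratios scaling, the compared groups only, edgeR or without the 3 libraries, 2 with quantile normalization and 4 with DESeq2. The DMSO genotype count of 1 became 0 with a filter at 5 CPM, which removes H2-Bl. The 3-week genotype count of 3 became 1 with the compared groups only, and the 6-week count of 7 became 4 with a filter at 5 CPM and 1 with the compared groups only. Leaving out 1 library gave ranges of 0 to 6 (fl/fl between times), 1 to 11 (PTKO between times), 1 to 1 (genotypes, DMSO), 1 to 8 (3 weeks), 1 to 10 (6 weeks), 2 to 14 (averaged) and 0 to 0 (interactions). Where it left 2 libraries in a group, the spread was shared with the other groups.

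Groups share replicate numbers, and a check did not show that these pair the libraries. The deviations of same-numbered libraries correlated above 0.1 in 9 of 45 pairs (range -0.37 to 0.49). With 3 libraries in each group this check cannot exclude pairing. With the replicate number as a block the averaged count was 6, the 3-week count 2, the 6-week count 6 and the PTKO count between times 6, and the others were as without it. Depth limits H2-Bl most, with 1 to 5 reads in an fl/fl library.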
